A study of Mus musculus with 4 samples.

Results

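The 48 genes described here encode the enzymes of central carbon metabolism: 16 of glycolysis with lactate dehydrogenase, 6 of the pentose phosphate pathway, 21 of pyruvate dehydrogenase and the tricarboxylic acid (TCA) cycle, and 5 of pyruvate carboxylase and gluconeogenesis. They were taken by name from the annotation of the arrays, with Pkm also under its older name Pkm2, and each was given 1 value. A value was obtained for 47 of the 48 genes, of 14800 genes tested in all, and Pck1 was not analysed here. RNA came from cells sorted by flow cytometry from colonic crypts of adult Lgr5_EGFP-ires-CreERT2 knockin mice, in which GFP follows the Lgr5 promoter. The Lgr5-GFP population was sorted on GFP and the CD24hi population with a PE-conjugated antibody to CD24 at its high level, which by the design selects part of the goblet cells. Each of 4 arrays with 2 dyes carried 300 ng of labelled RNA from each population, as 2 replicates of a first array (Lgr5-GFP RNA in Cy3) and a dye swap (in Cy5). Neither strain, sex nor treatment is given in the labels, nor whether the replicates came from separate animals or pools, so each p-value reflects the spread of these samples alone and that spread may be technical.

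Glycolysis splits glucose into pyruvate, first through hexose steps that spend ATP and then through triose steps that return it, and lactate dehydrogenase interconverts pyruvate and lactate. The pentose phosphate pathway branches off at glucose 6-phosphate: its oxidative branch makes NADPH, and its non-oxidative branch exchanges sugar phosphates with glycolysis and yields the ribose of nucleotides. Pyruvate dehydrogenase passes pyruvate carbon into the mitochondrial TCA cycle, and gluconeogenesis runs back to glucose through a few enzymes of its own. In the colon epithelium, dividing crypt cells and differentiated secretory and absorptive cells are known to draw on these routes to different degrees.

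All ratios are log2 values with the RNA labelled Lgr5-GFP on top and the RNA labelled CD24hi below, and the sort genes ran against those labels. Lgr5 had a log2 ratio of -3.41 and Cd24a, which encodes CD24, one of 2.12. Of 9 measured stem cell markers 8 were lower for the Lgr5-GFP label and 1 was higher, all 12 cell cycle genes were lower, and 7 of 10 goblet cell markers were higher and none lower (limma, adjusted p under 0.05). Of the absorptive colonocyte markers 6 of 9 were called higher and none lower, with a median of 0.65, among them Guca2a at 3.05 and Scnn1a at 2.54. Slc26a3 at -0.49, Car4 at -0.13 and Aqp8 at 0.34 were not called. The uncalled goblet cell markers were Tff3 at -0.95, Fcgbp at 0.10 and Zg16 at 0.30. Directions below follow the labels, and turning the sign makes each higher a lower. Of the lists for cells outside the epithelium, 2 of 8 immune, 3 of 8 stromal and endothelial and 1 of 4 red blood cell genes had a signal that could be tested. Of these, Col1a2 was called higher at 0.44 (limma, adjusted p = 0.0379), Vim was at 0.36 (limma, adjusted p = 0.0533), and none of the others was called. The dye swap of replicate 1 stood apart: its median spot signals were 4377 for the RNA labelled Lgr5-GFP and 1358 for the RNA labelled CD24hi, against 94.2 to 164 and 110 to 197 on the other arrays, and 75.3% of its spots were marked as outliers and left out. The 2 replicates correlated at r = 0.909 across genes, though genes are no independent replicates.

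The 47 members were all well above background on all 4 arrays in both populations. Limma called 24 of them at an adjusted p under 0.05, with 9 higher for the Lgr5-GFP label and 15 lower, where 47.6% of all genes tested were called (21.9% higher and 25.7% lower). The share of members called was near that of all genes, so the count alone is no result about the members. Their median log2 ratio was -0.15, beside -0.07 over all genes. All 24 called members had 1 direction on every array with a value, 8 of them differed more than 2-fold (2 higher and 6 lower), and across the members, as a description, the replicates correlated at r = 0.940. On the dye swap of replicate 1, 15 members had no value, so their replicate 1 rested on its first array alone and was not dye-balanced. Of the 32 members with a value there, that array gave the lowest ratio for 28 (87.5%), as it did for 63.9% of the 5198 genes with 4 values.

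The count of calls turned on a few choices. When spots with a non-uniform local background were kept in the background fit, 2 members were called, Taldo1 and Idh3g, both lower, and 770 genes in all. Without the first array of replicate 1, 3 of the 32 members that could still be tested were called, all lower. The split of 9 higher and 15 lower became 5 and 18 with each array centred on its median in place of loess, 5 and 14 in the deposited series table, and 4 and 12 with marked spots kept. Centring moved the median of all genes to -0.25 and the series table moved it to -0.17. No called member changed sign under any of the 10 alternatives that kept all arrays.

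**Figure D1:**
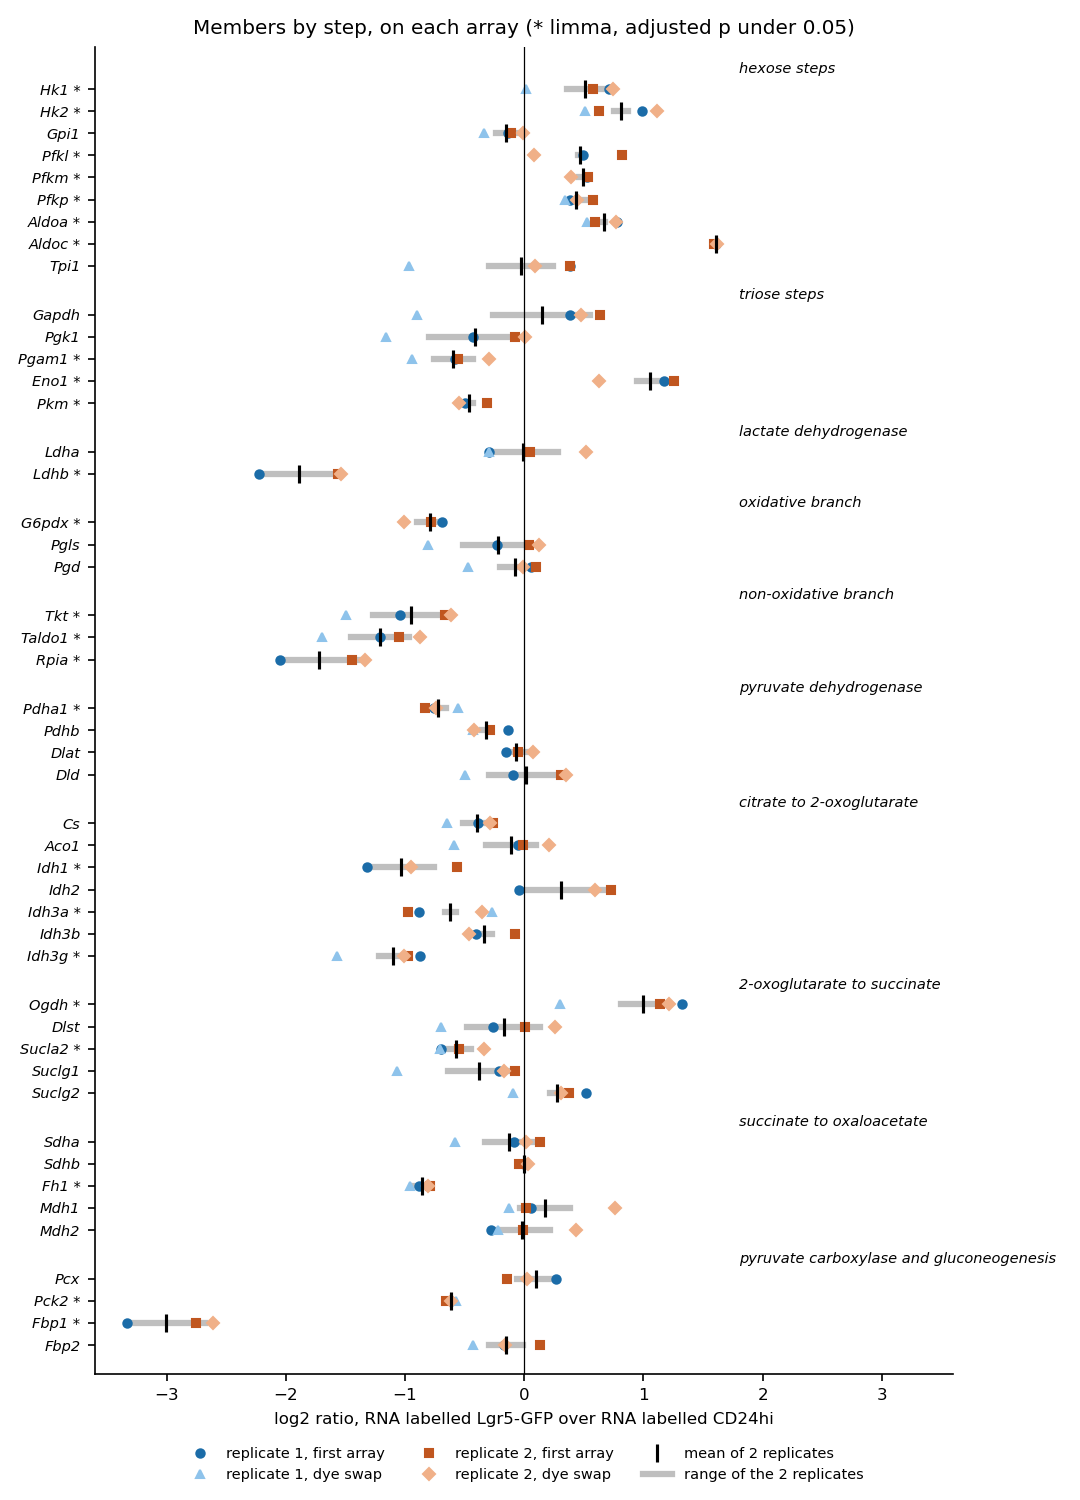
Log2 ratio, labelled Lgr5-GFP over labelled CD24hi (x axis), for the 47 members in the order of their steps (y axis), with 1 symbol per array, a grey bar between the 2 replicates and a black tick at their mean. An asterisk marks the 24 members called by limma. Fbp1, Ldhb and Rpia lie farthest to the left and Aldoc, Eno1 and Ogdh farthest to the right, and the dye swap of replicate 1 is often the leftmost symbol.

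The counts of higher and lower genes differed between the pathways. Over all genes tested, 21.9% were higher and 25.7% lower, and the counts were not tested against these shares. Of 16 glycolysis and lactate dehydrogenase genes, 8 were higher and 3 lower, with a median log2 ratio of 0.29. That median was 0.06 in replicate 1 and 0.46 in replicate 2. Of 6 pentose phosphate genes, none was higher and 4 were lower, with a median of -0.87. Of 21 pyruvate dehydrogenase and TCA genes, 1 was higher and 6 were lower, with a median of -0.17. The share lower, 28.6%, was near that of all genes. The 4 measured genes of pyruvate carboxylase and gluconeogenesis had a median of -0.39, none higher and 2 lower.

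Array by array, the glycolysis median lay above the pentose phosphate median on 4 of 4 arrays, by 1.13 ± 0.13 on the log2 scale (SD, n = 2 replicates), and above the TCA median on 4 of 4 arrays, by 0.43 ± 0.05. The TCA median lay above the pentose phosphate median by 0.70 ± 0.08, again on 4 of 4 arrays. These differences are larger than the spread between replicates, but 2 replicates allow no exact p below 0.5 and none was tested. The dye swap of replicate 1 held values for 10 of 16 glycolysis, 4 of 6 pentose phosphate and 16 of 21 TCA genes. Medians of replicate 1 therefore mix genes with and without that array. The glycolysis median itself was less settled. It was -0.32 on that dye swap and -0.090 without the first array of replicate 1, where fewer of its genes had a value. Over the alternatives it ranged up to 0.46. The pentose phosphate median stayed between -1.06 and -0.65.

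**Figure D2:**
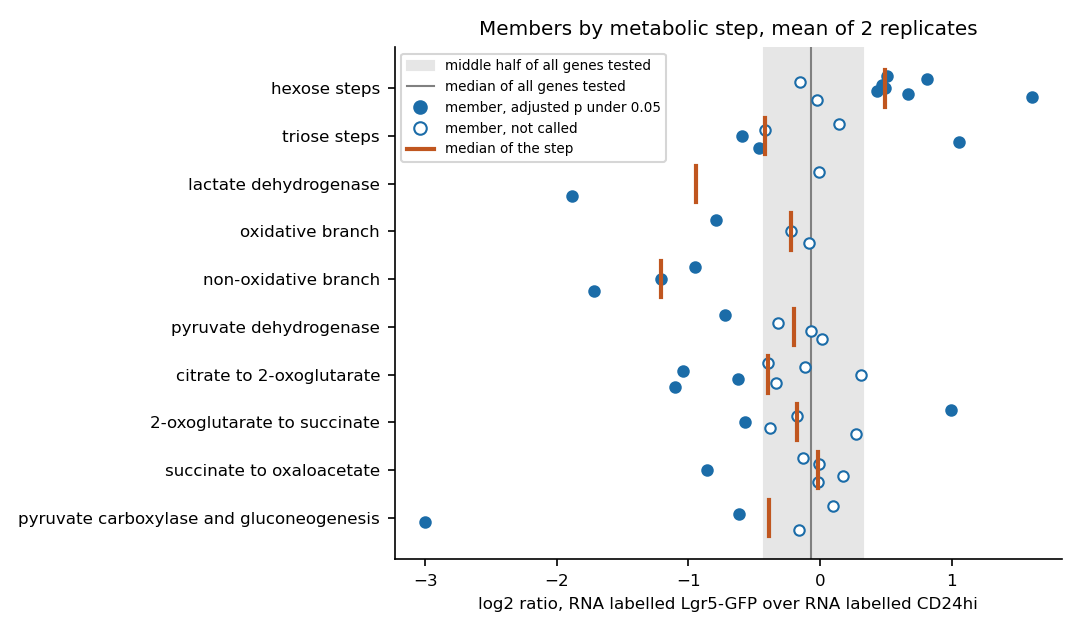
Mean log2 ratio of the 2 replicates (x axis) for each member, grouped by metabolic step (y axis), with called members filled, uncalled ones open and the median of each step as a vertical bar. The shaded band holds the middle part of all genes tested, between their quartiles. The hexose steps have a median of 0.49 and the non-oxidative branch one of -1.21, with each of its 3 genes left of the band.

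Within glycolysis the hexose steps had higher ratios than the triose steps. In this grouping Tpi1, which acts on trioses, was counted with the hexose steps. Of the 9 genes of the hexose steps, 7 were higher and none was lower for the Lgr5-GFP label, with a median of 0.49, while the 5 genes of the triose steps gave 1 higher and 2 lower and a median of -0.42. The triose median was -0.50 in replicate 1 and -0.036 in replicate 2, near 0, so the triose steps as a group had no settled direction. The hexose median exceeded the triose median on 4 of 4 arrays, by 0.77 ± 0.32.

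Both hexokinases, which trap glucose in the cell by phosphorylation, were higher. Hk2 had log2 ratios of 0.99 on the first array and 0.51 on the dye swap of replicate 1, and of 0.63 and 1.12 on the same arrays of replicate 2, all above 0. This was 1.75-fold, or 0.81 ± 0.09 (SD, n = 2 replicates; limma, adjusted p = 0.00439; probe at chromosome 6, 82675056 to 82675115, mm9). Hk1 had 0.71, 0.02, 0.58 and 0.74 on the arrays in the same order, a mean of 0.51 ± 0.21 (limma, adjusted p = 0.0270), with the dye swap of replicate 1 near 0. The other 2 kept probes of Hk1 gave 0.91 and 1.01, so its size depends on the probe. The call was lost in 6 of 14 tested alternatives for Hk1 and in 2 of 14 for Hk2.

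The 3 phosphofructokinase genes, for the liver, muscle and platelet forms of the enzyme that commits sugar to glycolysis, had nearly equal means. Pfkl had 0.49 on the first array of replicate 1, no value on its dye swap, and 0.82 and 0.08 in replicate 2. Pfkm had 0.53, no value, 0.53 and 0.39, and Pfkp 0.39, 0.34, 0.57 and 0.44. Their means of 0.47, 0.49 and 0.44 were called in limma at adjusted p of 0.0237, 0.0207 and 0.0335. These were among the weakest calls of the set: the call was lost in 7 of 13 tested alternatives for Pfkl, 5 of 13 for Pfkm and 7 of 14 for Pfkp, and a second probe of Pfkp gave -0.17.

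Aldolase cleaves the hexose into trioses, and Aldoc, the form first known from brain, was the member with the largest rise. It had 1.61 on the first array of replicate 1, no value on its dye swap, and 1.59 and 1.62 in replicate 2. The 3 arrays nearly coincided, at 3.05-fold or 1.61 ± 0.0038 (limma, adjusted p = 7.84e-04; chromosome 11, 78139964 to 78140023, mm9), and 468 of the 14800 genes had a higher ratio. A second, dimmer kept probe, annotated to another transcript, gave 0.12, so the rise was that of 1 of 2 probes. Aldoa, the form of most tissues, had 0.78, 0.52, 0.59 and 0.77, a mean of 0.67 ± 0.02 (limma, adjusted p = 0.00768). A second kept probe, which shares much of its sequence with the first, gave 0.61. Aldoc exceeded Aldoa on 3 of 3 arrays. Gpi1, the isomerase of the second step, was at -0.15 and Tpi1, which interconverts the trioses, at -0.03, neither called. Tpi1 passed at 0.31 without the dye swap of replicate 1 (limma, adjusted p = 0.0467), where its array value was -0.97.

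Among the triose steps, Eno1, the enolase of most cells, was higher and the genes beside it in the pathway were not. Eno1 had 1.17 on the first array of replicate 1, no value on its dye swap, and 1.26 and 0.62 in replicate 2, a 2.08-fold rise (1.06 ± 0.16; limma, adjusted p = 0.00239; chromosome 4, 149618134 to 149618359, mm9). Pgam1, the mutase before enolase, fell by 0.59 on the log2 scale and Pkm, the pyruvate kinase after it, by 0.46 (limma, adjusted p = 0.0182 and 0.0257). The Pkm call was lost in 6 of 13 tested alternatives. One of its 3 kept probes gave -0.0048 and the other two gave -0.46 and -0.47.

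Gapdh, often used as a reference gene, had 0.38, -0.90, 0.63 and 0.47, and Pgk1 had -0.43, -1.16, -0.08 and 0.01. Neither was called, and for both the dye swap of replicate 1 stood below the other arrays. Without it Gapdh was at 0.47 (limma, adjusted p = 0.0105). The Pgk1 probe was printed 10 times on each array, and the SD over those spots was 0.04 to 0.08, so its spread between arrays lay well above its spread within one.

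The lactate dehydrogenase genes parted. Ldhb, for the heart-type subunit, had -2.22 on the first array of replicate 1, no value on its dye swap, and -1.56 and -1.54 in replicate 2. It was 3.70-fold lower (-1.89 ± 0.47; limma, adjusted p = 0.00138; chromosome 6, 142438838 to 142438897, mm9), and 230 genes had a lower ratio. Its log2 signals of 9.66, 9.52 and 9.44 in the RNA labelled Lgr5-GFP did not overlap the 11.89, 11.08 and 10.98 in the RNA labelled CD24hi. Ldha, for the muscle-type subunit, had -0.30, -0.30, 0.05 and 0.52, a mean of -0.01 ± 0.41 that was not called. Ldha exceeded Ldhb on 3 of 3 arrays, by 1.92, 1.61 and 2.06 on the log2 scale. Between replicate means the difference was 1.88 ± 0.06, where replicate 1 of Ldhb rests on its first array alone and that of Ldha on both. It was not tested.

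**Figure D3:**
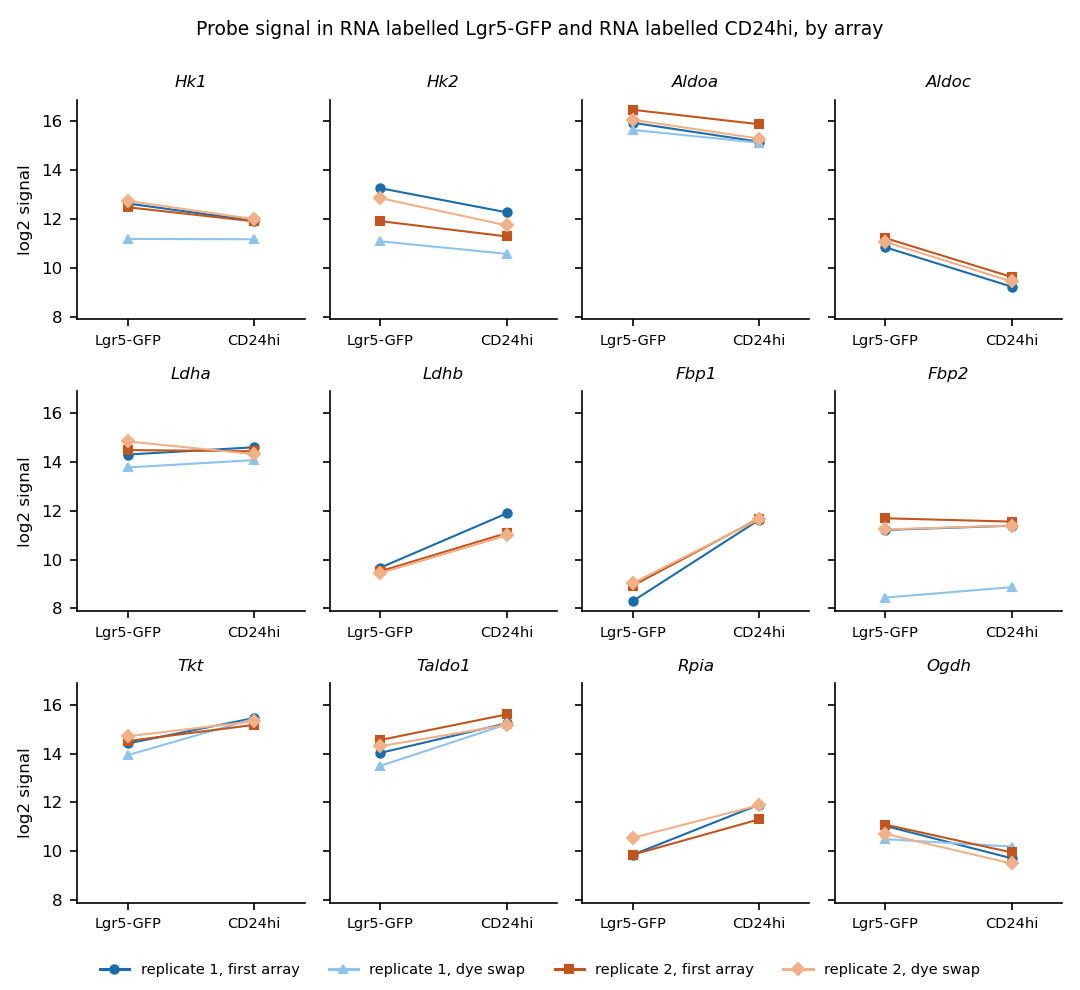
Log2 probe signal after normalization (y axis) in the RNA labelled Lgr5-GFP (left) and the RNA labelled CD24hi (right) for 12 members, with 1 line per array. Lines of Aldoc and Ogdh slope down to the right, those of Ldhb, Fbp1, Tkt, Taldo1 and Rpia slope up, and those of Ldha cross. Levels compare between populations and not between panels, since each panel is its own probe.

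In the pentose phosphate pathway the 3 member genes of the non-oxidative branch were lower, while Rpe, the epimerase of that branch and no member, was at -0.0033 and not called. Rpia, the isomerase that makes ribose 5-phosphate, had -2.05 on the first array of replicate 1, no value on its dye swap, and -1.45 and -1.33 in replicate 2. This was 3.29-fold lower (-1.72 ± 0.47; limma, adjusted p = 0.00170; chromosome 6, 70715710 to 70715770, mm9). Its log2 signals of 9.86, 9.86 and 10.55 in the RNA labelled Lgr5-GFP lay below the 11.91, 11.30 and 11.88 in the RNA labelled CD24hi.

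Taldo1, transaldolase, had -1.21, -1.70, -1.05 and -0.88, and was 2.31-fold lower (-1.21 ± 0.35; limma, adjusted p = 0.00296; chromosome 7, 148588764 to 148588823, mm9). It kept its call in all 14 tested alternatives. Tkt, transketolase, had -1.04, -1.49, -0.66 and -0.61, a fall of 0.95 ± 0.44 (limma, adjusted p = 0.00903), but a second, dimmer kept probe gave -0.07.

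The oxidative branch was mixed. G6pdx, the X-linked glucose 6-phosphate dehydrogenase that opens it, had -0.69, no value on the dye swap of replicate 1, -0.78 and -1.01, and fell by 0.79 ± 0.15 (limma, adjusted p = 0.00530). Pgls, the lactonase, was at -0.22 and Pgd, the second NADPH-making dehydrogenase, at -0.08, neither called. A second probe of Pgd gave 0.73 and passed among all probes tested (limma, adjusted p = 0.00531), so the direction of Pgd depends on the probe. The oxidative median exceeded the non-oxidative median by 0.97 ± 0.05, on 4 of 4 arrays.

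Beside these falls stand those of the cell cycle genes, for which the RNA labelled Lgr5-GFP was lower at 12 of 12 genes, with ratios of -3.72 to -1.61. The medians of the absorptive and goblet cell markers lay the other way, at 0.65 and 2.70, though Slc26a3, Car4 and Tff3 were below 0 without a call. The part of these cell types in the differences of the members was not tested. In bulk RNA of sorted cells, fewer cells of a type and less RNA per cell cannot be told apart.

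Most genes of the mitochondrial routes differed little. Of the 4 pyruvate dehydrogenase genes, Pdha1, the X-linked catalytic subunit that is switched off by phosphorylation, had -0.75, -0.55, -0.83 and -0.74 and fell by 0.72 ± 0.09 (limma, adjusted p = 0.00644), with a second probe at -0.26. Pdhb, Dlat and Dld, the further subunits, lay between -0.32 and 0.01 and were not called. Citrate synthase, Cs, was at -0.39 (limma, adjusted p = 0.0530), with a second kept probe at 0.09, so its sign depends on the probe. The cytosolic aconitase Aco1, which doubles as an iron sensor, was at -0.11.

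Of the 5 isocitrate dehydrogenase genes, 3 were called lower and 2 were not called. The mitochondrial NAD-linked enzyme has 3 subunits: Idh3g had -0.87, -1.57, -0.97 and -1.01, Idh3a had -0.88, -0.27, -0.98 and -0.36, and Idh3b had -0.40, no value, -0.08 and -0.47. Idh3g was 2.15-fold lower, with an SD of 0.16 between replicates on the log2 scale (limma, adjusted p = 0.00216; chromosome X, 71024358 to 71024417, mm9) and Idh3a by 0.62 ± 0.06 (limma, adjusted p = 0.0101), while Idh3b at -0.34 missed the threshold (limma, adjusted p = 0.0704). The Idh3g call held in all 14 tested alternatives.

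Of the NADP-linked forms, the cytosolic one was lower and the mitochondrial one was not called. Cytosolic Idh1 had -1.32, no value on the dye swap of replicate 1, -0.57 and -0.95, and fell by 1.04 ± 0.40 (limma, adjusted p = 0.00556). Mitochondrial Idh2 had -0.04, no value, 0.73 and 0.59, a mean of 0.31 ± 0.50 that was not called. Idh2 exceeded Idh1 by 1.35 ± 0.10, on 3 of 3 arrays, and this difference was not tested.

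Ogdh, the first subunit of 2-oxoglutarate dehydrogenase, was the member of the cycle that was higher. It had 1.32, 0.30, 1.14 and 1.21, all above 0 with the dye swap of replicate 1 lowest, and its mean of 0.99 ± 0.26 was 1.99-fold (limma, adjusted p = 0.00379). A second kept probe just downstream gave 1.22 and was called too. The Ogdh probes read neighbouring stretches on the same arrays, so their agreement is no independent support. Both are printed with the single kept probe of Eno1. The printed probes are 60 bases long, as deposited, on the plus strand of mm9 by the file annotation, which does not say which exon they lie in. The interval given for Eno1 is longer than its probe.
Ogdh, chr11:6255299-6255358: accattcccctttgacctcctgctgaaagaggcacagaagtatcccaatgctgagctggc
Ogdh, chr11:6255369-6255428: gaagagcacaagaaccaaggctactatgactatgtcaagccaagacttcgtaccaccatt
Eno1, chr4:149618134-149618359: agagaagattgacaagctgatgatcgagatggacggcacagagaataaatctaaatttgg

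Of the partners of Ogdh in the complex, Dld was at 0.01 and the direction of Dlst depended on the probe. Dlst, the succinyltransferase subunit, had -0.26, -0.69, 0.01 and 0.26 with its brightest probe, a mean of -0.17. The 3 kept probes of Dlst went separate ways, since the others gave 0.97 and -0.76 and both passed among all probes tested (limma, adjusted p = 0.00255 and 0.0113). Dlst was the only member with probes called in opposite directions.

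Succinyl-CoA ligase pairs a shared subunit, Suclg1, with an ATP-linked one, Sucla2, or a GTP-linked one, Suclg2. Sucla2 had -0.70, -0.71, -0.54 and -0.34 and fell by 0.57 ± 0.18 (limma, adjusted p = 0.0173). Suclg2 had 0.52, -0.09, 0.38 and 0.31, a mean of 0.28 ± 0.09 that was not called (limma, adjusted p = 0.117), and its second probe gave 0.79 and passed among all probes tested (limma, adjusted p = 0.00678). Suclg2 was also called with the mean of kept probes, at 0.40, and without the dye swap of replicate 1, at 0.43 (limma, adjusted p = 0.0437 and 0.0151). Suclg2 exceeded Sucla2 on 4 of 4 arrays, by 0.85 ± 0.09, a difference that was not tested. Suclg1 had -0.21, -1.06, -0.08 and -0.17 and was not called.

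Of the last steps, Fh1, fumarase, had -0.88, -0.96, -0.79 and -0.81, close together on all arrays, and fell by 0.86 ± 0.09 (limma, adjusted p = 0.00371). The succinate dehydrogenase subunits Sdha and Sdhb, which also serve the respiratory chain, were at -0.13 and -0.0042. The cytosolic and mitochondrial malate dehydrogenases Mdh1 and Mdh2 were at 0.18 and -0.02. None of these 4 was called, with 95% intervals between -0.50 and 0.55.

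Gluconeogenesis held the member with the largest difference of all. Fbp1, the liver-type fructose 1,6-bisphosphatase that opposes phosphofructokinase, had -3.33 on the first array of replicate 1, no value on its dye swap, and -2.75 and -2.61 in replicate 2. Its log2 signals were 8.30, 8.93 and 9.04 in the RNA labelled Lgr5-GFP and 11.62, 11.68 and 11.64 in the RNA labelled CD24hi, with no overlap. This was 8.02-fold lower (-3.00 ± 0.46; limma, adjusted p = 6.38e-04; chromosome 13, 62966175 to 62966234, mm9), and 23 of the 14800 genes had a lower ratio. The call was lost in 1 of 13 tested alternatives, with non-uniform backgrounds kept, where the ratio was -2.37 (limma, adjusted p = 0.0631).

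Fbp2, the muscle-type form and its neighbour on chromosome 13, had -0.17, -0.43, 0.14 and -0.16 and was not called. Fbp2 exceeded Fbp1 on 3 of 3 arrays, by 3.16, 2.88 and 2.45. Between replicate means the difference was 2.85 ± 0.26, where replicate 1 of Fbp1 rests on its first array alone and that of Fbp2 on both. Pck2, the mitochondrial form of phosphoenolpyruvate carboxykinase, had -0.62, -0.57, -0.66 and -0.61, and fell by 0.61 ± 0.03 (limma, adjusted p = 0.0100). Pcx, pyruvate carboxylase, which refills the cycle with oxaloacetate, had 0.27, no value, -0.14 and 0.02 and was not called.

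Of the 47 measured members, 22 had 2 or 3 kept probes. In 15 of them all kept probes had 1 sign and in 7 they had both signs. Probe pairs of Aldoa, Gapdh and Pgk1 lay within 0.06 of each other, while those of Aldoc, Tkt and Pgd differed by 1.49, 0.88 and 0.81. The probes of Aldoa share much of their sequence, as do those of Pgk1, so close values within these pairs are no agreement of separate probes. The files do not say which transcripts share a probe, so a difference between probes of a gene was not resolved further.

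**Figure D4:**
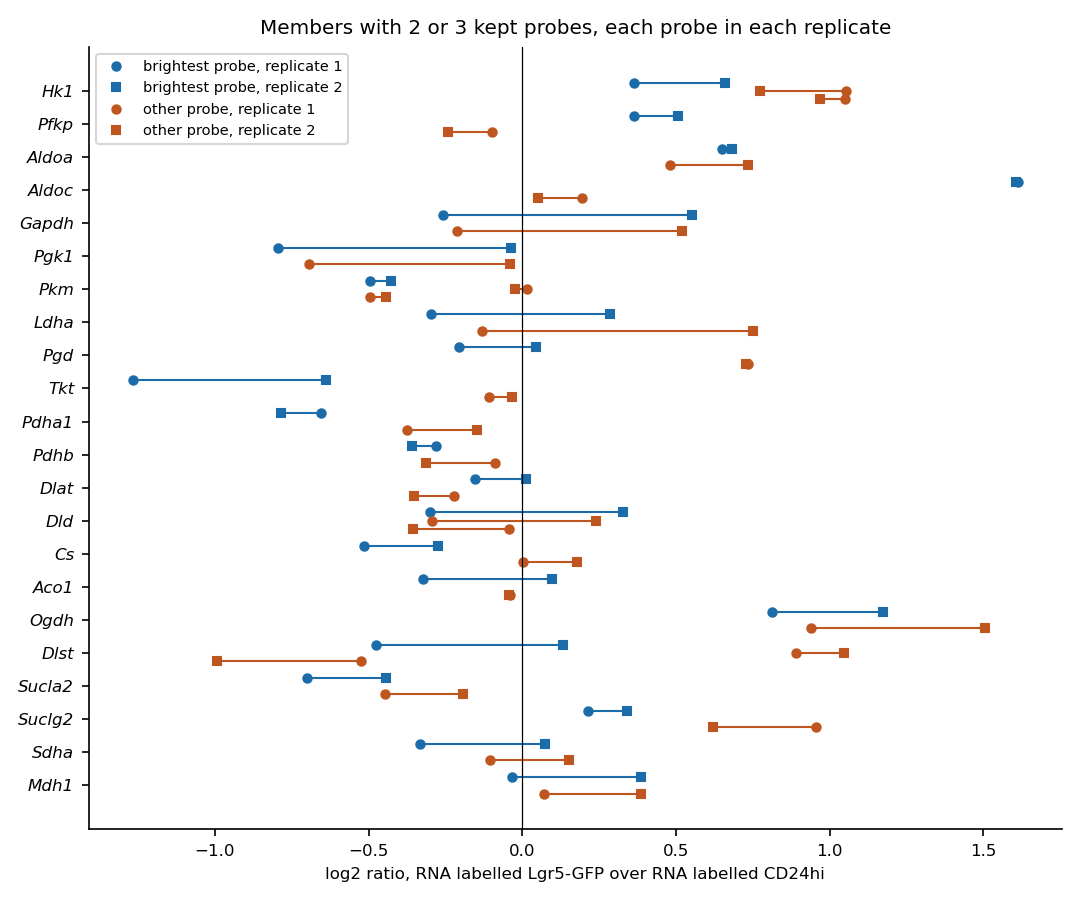
Log2 ratio (x axis) of each kept probe of the 22 members that had 2 or 3 (y axis), with a line between replicate 1 (circle) and replicate 2 (square), blue for the brightest probe and orange for the others. Probes of Ogdh, Hk1 and Aldoa lie together to the right of 0, while those of Dlst fall at -0.76, -0.17 and 0.97.

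Other genes of the same routes gave a wider view. Of 22 further glycolysis and lactate genes, 17 were measured, 6 of them higher and 2 lower. Among all genes tested 21.9% were higher and 25.7% lower, and the counts of these further lists were not tested against those shares. Pfkfb4, a bifunctional enzyme that sets the level of the phosphofructokinase activator fructose 2,6-bisphosphate, had 3.18, 1.11, 2.76 and 2.93, a 5.65-fold rise (2.50 ± 0.49; limma, adjusted p = 8.16e-04). The glucose transporter Slc2a1 was at 1.01, the phosphoglucomutase Pgm1 at 0.97, Pfkfb3 at 0.25 without a call, and Pklr, the liver and red cell pyruvate kinase, at 0.74. Hkdc1, a hexokinase-like gene, was at -1.10 and the monocarboxylate carrier Slc16a1 at -0.80, both called lower.

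Of 8 further pentose phosphate genes 6 were measured, and 2 were higher and none lower. H6pd, the glucose 6-phosphate dehydrogenase of the endoplasmic reticulum, had 1.78, 0.33, 1.70 and 1.76, a 2.62-fold rise (1.39 ± 0.48; limma, adjusted p = 0.00315), where G6pdx of the cytosol was lower. Shpk, the sedoheptulokinase, was at 1.08, and Rpe is given above. Of 15 further pyruvate dehydrogenase and TCA genes 12 were measured: the pyruvate carrier Mpc1 at 0.52 and the kinase Pdk3 at 0.49 were higher, and the kinase Pdk4 at -0.71 was lower. All 6 malic enzyme, citrate lyase and glucose 6-phosphatase genes were measured. Acly, which makes cytosolic acetyl-CoA, was higher at 1.06 and Me2, the mitochondrial malic enzyme, lower at -1.50.

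**Figure D5:**
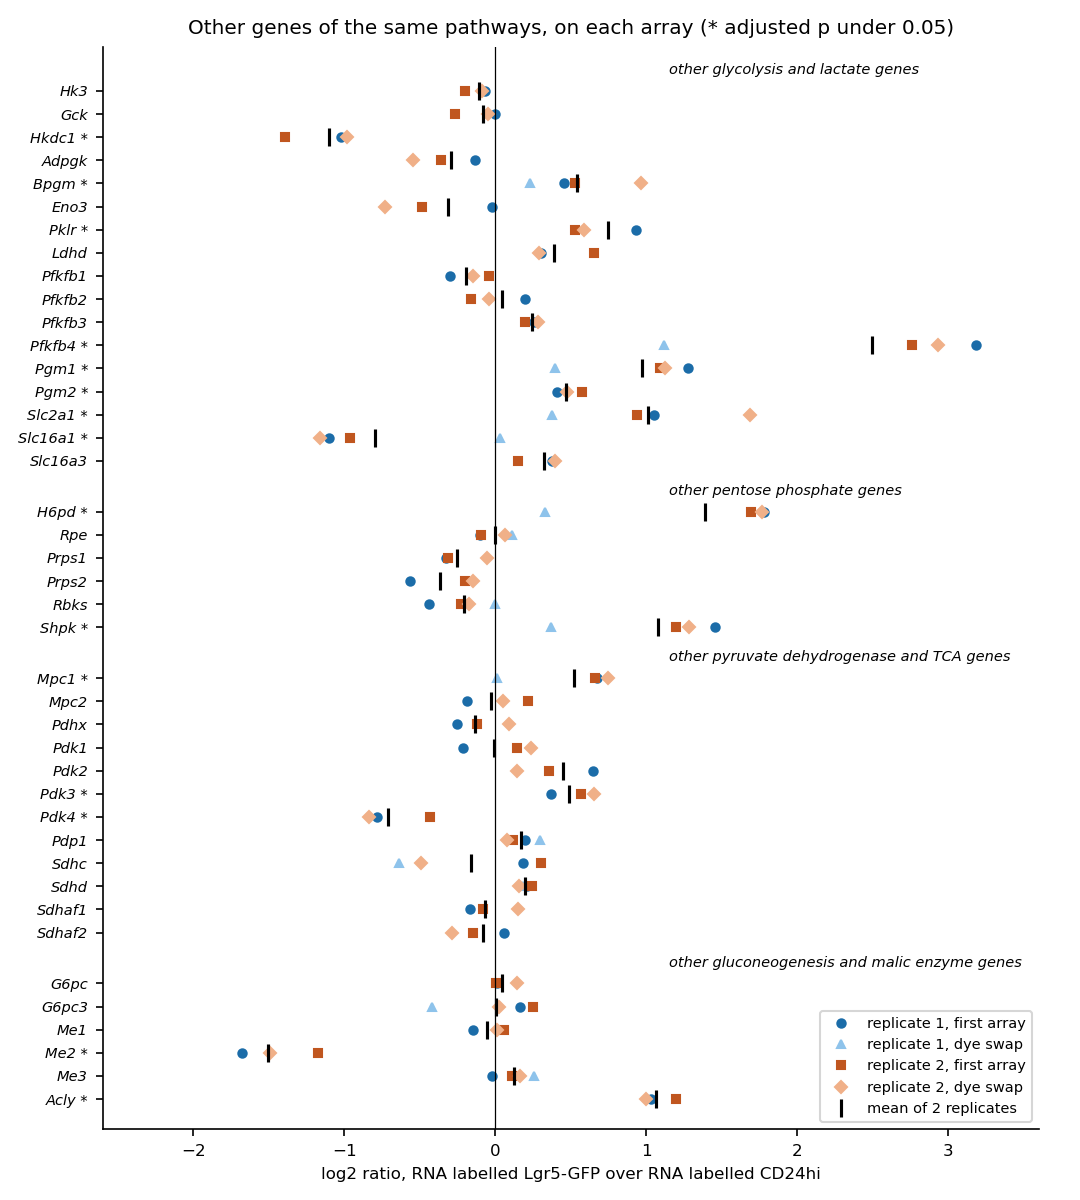
Log2 ratio (x axis) on each array for the 41 measured further genes of the same pathways (y axis), with a black tick at the mean of the 2 replicates and an asterisk for calls by limma. Pfkfb4 and H6pd lie farthest to the right and Me2 and Hkdc1 farthest to the left.

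Promoter windows from 250 bases before to 50 after the annotated start were matched for 47 of the 48 member genes (RefSeq, GRCm38.p6), with Idh3a missing. These genes had 66 windows, since some have several starts, and a gene counts when any of its windows holds the motif. They were searched on both strands for CACGTG, the E-box bound by Myc and Max, and for ACGTG, the core bound by hypoxia-inducible factors, counted only outside CACGTG since one holds the other. CACGTG stood in 5 of 47 member genes (10.6%), against 8.1% of all genes in the table. ACGTG stood in 17 of 47 (36.2%), against 15.3% of all genes, and members were also richer in G and C, at a median of 60.2% against 52.7%. By window, the core stood in 21 of the 66 member windows (31.8%), against 13.6% of all windows. The core was in 6 of the 9 higher members, 4 of the 14 lower ones with a window and 7 of the 23 uncalled ones, and no test was made. A gene with more windows has more chances of a match, and these counts were not adjusted for that. The higher members Ogdh, Pfkm, Aldoa and Eno1 each have more windows than any lower member. The GC box GGGCGG stood in 36 of 47 (76.6%), against 38.2% of all genes, and TATAAA in 0 of 47, against 15.7%. Windows of Hk2, Aldoc and Ldha, which hold matches, are printed beside those of Ldhb and Fbp1, the members lowest in the RNA labelled Lgr5-GFP, which hold none, in lower case with each CACGTG or ACGTG of either strand in capitals. Aldoc and Ldha each have a second window that holds no match and is not printed. The printed windows are examples and do not stand for the members. Eno1, Pfkl and Pfkp, called higher, hold no match, Pkm, G6pdx, Idh3g and Pgam1, called lower, hold ACGTG, and Ldha was not called. A match describes the letters in the window and does not show binding.
Hk2, minus strand, chr6:82774405-82774704: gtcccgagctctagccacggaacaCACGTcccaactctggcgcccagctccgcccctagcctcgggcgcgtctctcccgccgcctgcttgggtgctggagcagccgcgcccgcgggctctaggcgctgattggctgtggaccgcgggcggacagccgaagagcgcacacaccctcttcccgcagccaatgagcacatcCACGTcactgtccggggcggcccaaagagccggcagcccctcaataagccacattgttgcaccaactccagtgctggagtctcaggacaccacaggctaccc
Aldoc, plus strand, chr11:78322823-78323122: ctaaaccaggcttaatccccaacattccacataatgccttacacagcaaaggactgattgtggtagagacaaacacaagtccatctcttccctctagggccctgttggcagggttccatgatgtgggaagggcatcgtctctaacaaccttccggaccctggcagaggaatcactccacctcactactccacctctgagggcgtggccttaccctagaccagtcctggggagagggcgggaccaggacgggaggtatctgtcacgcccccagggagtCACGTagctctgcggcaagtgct
Ldha, plus strand, chr7:46845554-46845853: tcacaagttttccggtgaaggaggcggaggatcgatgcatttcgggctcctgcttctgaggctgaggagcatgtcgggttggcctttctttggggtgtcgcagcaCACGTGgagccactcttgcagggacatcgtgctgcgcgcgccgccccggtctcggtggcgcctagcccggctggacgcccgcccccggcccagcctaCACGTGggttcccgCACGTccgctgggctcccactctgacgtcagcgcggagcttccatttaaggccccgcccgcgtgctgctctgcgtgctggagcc
Ldhb, minus strand, chr6:142507908-142508207: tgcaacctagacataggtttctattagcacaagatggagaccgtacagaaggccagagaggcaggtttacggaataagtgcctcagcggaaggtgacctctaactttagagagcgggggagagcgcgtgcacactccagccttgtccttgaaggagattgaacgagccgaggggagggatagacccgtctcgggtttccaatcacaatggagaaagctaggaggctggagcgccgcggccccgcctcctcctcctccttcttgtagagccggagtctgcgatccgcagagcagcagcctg
Fbp1, minus strand, chr13:62888233-62888532: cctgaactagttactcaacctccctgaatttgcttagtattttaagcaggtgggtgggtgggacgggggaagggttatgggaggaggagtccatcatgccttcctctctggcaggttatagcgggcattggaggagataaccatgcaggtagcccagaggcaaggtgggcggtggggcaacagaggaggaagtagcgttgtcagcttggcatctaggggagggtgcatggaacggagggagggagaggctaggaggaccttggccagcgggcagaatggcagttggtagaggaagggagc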

How the data were processed

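Spots were quantified in Feature Extraction 10.5.1.1, per the file headers. The authors deposited as intensity the mean spot signal and the median local background of each dye, without normalization. They also deposited processed signals, which that software had corrected for background and dye, and the log10 of their red to green ratio. The deposited series table held log2 ratios of red over green, as found by setting it against the arrays' own log10 ratios, and how it was normalized is not given here.

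Signals were corrected with normexp (offset 50) in limma 3.58.1 (R 4.3.3) without spots of non-uniform local background, and brought to a common scale with global loess, control spots weighing 0. Leaving those spots out was a choice of earlier work on these files, made after its result was seen. Spots marked as outliers were left out: of 43379, 100 on the first array of replicate 1, 32648 on its dye swap, and 222 and 163 in replicate 2. No spot was saturated. Ratios were turned by the labelled dyes, each array was averaged with its swap into 1 replicate, and limma tested the 2 replicates against 0 (2-sided, 1 residual and 4.50 prior degrees of freedom, Benjamini-Hochberg over all genes, adjusted p under 0.05). The number of arrays limits the precision. A probe stayed in when 1 of the populations was well above background on every array, and the brightest kept probe stood for its gene. RefSeq (GRCm38.p6) gave the names of 27041 gene spots, and 16338 kept the file's name.

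The members, pathways and gene lists were chosen with earlier results of these data known. Every member is accounted for. Array values are given for up to 5 called members with the largest ratios per pathway and for isoenzyme and subunit families. Up to 5 called genes are named per list of further genes, and Pklr, Pfkfb3 and Rpe are named beyond them. Some further genes of these routes are not reported here. The limma fit was run on simulated data with known changes and independent noise. That simulation had no dye effect and no missing array values, so it does not bear on such faults here. Alternatives covered the background, marked spots, normalization, dim probes, the probe of a gene, a random block and each array or replicate left out.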

Additional observations from a re-analysis of the deposited data

Results flagged for a closer look

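Of the 32 members with a value on all 4 arrays, 2 had an array far from the others by Dixon's ratio, the gap to the nearest array over the whole range, for which chance gives about 1 in 20. For Gapdh the ratio was 0.835: the dye swap of replicate 1 was at -0.90 and the nearest array at 0.38. For Suclg1 it was 0.863: the same dye swap was at -1.06 and the nearest array at -0.21. That array had 75.3% of its spots left out, and its part in these values was not tested. Neither gene was called in limma.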

How the results depend on the processing

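With non-uniform backgrounds kept in the fit, 770 genes and 2 members were called: 0 higher and 0 lower in glycolysis, 1 lower in the pentose phosphate pathway, 0 higher and 1 lower in the TCA group and 0 lower in gluconeogenesis. With marked spots kept, 3731 genes were called, 3 glycolysis members were higher and 1 lower, and the gluconeogenesis median was -0.48. With the processed signals, 5 glycolysis members were higher and 1 lower and 1 pentose phosphate member was higher. That was Pgd at 0.66 (limma, adjusted p = 0.0282), shown there by its other probe, where the brightest probe had given -0.08. With median centring, 4 glycolysis members were higher and the medians were -1.06 for pentose phosphate and -0.52 for gluconeogenesis. In the series table, 4 glycolysis members were higher and the gluconeogenesis median was -0.54. With the mean of all kept probes, 2 TCA members were higher and the pentose phosphate median was -0.65.

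Leaving out 1 array or replicate at a time gave glycolysis medians of -0.090 to 0.46 and pentose phosphate medians of -0.98 to -0.71. Members called were 3 to 29: 0 to 10 higher and 0 to 3 lower in glycolysis, 2 to 4 lower in pentose phosphate, 0 to 2 higher and 1 to 8 lower in the TCA group, 0 to 2 lower in gluconeogenesis, and 981 to 8543 of all genes. The low end was the first array of replicate 1 left out, where 32 members and 6031 genes could be tested. Tpi1 turned to 0.31 without the dye swap of replicate 1 (limma, adjusted p = 0.0467), against -0.03. With replicate as a random block 8 members were higher and 17 lower. This block was chosen after seeing the data, since the version with a dye term could not be fitted. Each array gives 1 ratio of both populations, so the test of the ratios against 0 is itself paired by array. With a single group of ratios no further pairing was possible. The cause of these changes was not tested. For Pgd the shown probe changed as well. Without the first array of replicate 1, that replicate rested on its dye swap alone and fewer genes could be tested.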
